A study of Mus musculus with 2 samples.

Results

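Lymphocytes that recirculate and lymphocytes that stay in a tissue differ in a small set of transcripts, and 9 of these were followed here in CD45+ cells of mouse brown adipose tissue (BAT): S1pr1, Klf2, Il7r, Lef1, Tcf7, Cd69, Itgae, Rgs1 and Cd44. The genes were taken by name from the 32285 features counted in both libraries, and all 9 had UMIs in both. One library came from control mice and 1 from AdipoΔ/Δ mice. All animals were C57Bl/6 males that carried the AdipoQ-CreERT2 transgene and floxed ATGL alleles, and the labels give an age of 16 weeks (the study's own legend gives a younger age). AdipoΔ/Δ mice received tamoxifen at 10 mg/ml by intraperitoneal injection over 1 week, controls received the vehicle, and both rested for 2 weeks. Adiponectin-driven Cre acts in adipocytes, so the sorted leukocytes are not the cells in which ATGL, the enzyme that starts triglyceride breakdown, was targeted. Tamoxifen was given to the AdipoΔ/Δ mice alone, so the drug and the deletion cannot be told apart. The number of mice behind a library is not stated.

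Naive lymphocytes circulate between blood, lymphoid organs and tissues. They leave along a gradient of sphingosine-1-phosphate (S1P), which is high in blood and lymph and is sensed by the receptor S1PR1. The transcription factor KLF2 drives S1pr1. TCF-1 (Tcf7) and LEF-1 (Lef1) mark naive and memory-precursor T cells, and IL-7 receptor α (Il7r) carries their survival signal. CD69 binds S1PR1 and takes it off the cell surface, RGS1 shortens the signal of chemoattractant receptors, the integrin αE (Itgae, CD103) anchors cells to E-cadherin, and the hyaluronan receptor CD44 marks cells that have met antigen. S1pr1 and Klf2 are called egress genes below, and Cd69, Itgae and Rgs1 are called retention genes.

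On the GRCm38 (mm10) assembly the members are protein-coding genes on chromosome 3 (S1pr1, 115710433 to 115715072, minus strand; Lef1, 131110471 to 131224356, plus strand), 8 (Klf2, 72319033 to 72321656, plus), 15 (Il7r, 9505788 to 9530176, minus), 11 (Tcf7, 52252371 to 52283014, minus; Itgae, 73090583 to 73147446, plus), 6 (Cd69, 129267325 to 129275436, minus), 1 (Rgs1, 144242296 to 144249242, minus) and 2 (Cd44, 102811141 to 102901665, minus). Lef1, Tcf7 and Itgae each overlap 1 other counted gene on the opposite strand (Gm43352, A630014C17Rik and Haspin). RefSeq promoter windows, from 250 bases before to 50 after a gene start on GRCm38.p6, matched 5 of the 9 genes: Klf2, Il7r, Lef1, Tcf7 and Cd44. The windows of 3 transcription factor genes are printed, because Klf2 is the egress gene with the most UMIs and Lef1 and Tcf7 had the most alike pattern of any pair followed. Lef1 had 4 windows and Tcf7 had 2, and 1 of each is shown. Capitals mark matches, on either strand, to the MEF2 motif (CTA, 4 bases of any kind, then TAG), CCACCC (KLF), GTAAACA (FOXO) and ACCGGAAGT (ETS).
Klf2, chr8:72318812-72319111, plus strand: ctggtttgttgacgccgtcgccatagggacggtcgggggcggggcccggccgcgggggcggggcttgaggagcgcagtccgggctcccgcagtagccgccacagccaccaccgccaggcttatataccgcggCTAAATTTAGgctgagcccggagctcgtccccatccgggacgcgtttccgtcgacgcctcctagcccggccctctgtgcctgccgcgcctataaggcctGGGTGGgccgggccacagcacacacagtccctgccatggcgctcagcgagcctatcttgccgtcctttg
Lef1, chr3:131110047-131110346, plus strand: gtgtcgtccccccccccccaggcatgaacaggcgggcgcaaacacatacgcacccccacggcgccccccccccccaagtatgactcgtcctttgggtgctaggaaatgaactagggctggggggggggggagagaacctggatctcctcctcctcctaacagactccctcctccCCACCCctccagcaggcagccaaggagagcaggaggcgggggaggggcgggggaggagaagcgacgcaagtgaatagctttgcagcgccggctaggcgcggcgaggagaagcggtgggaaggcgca
Tcf7, chr11:52282546-52282845, minus strand: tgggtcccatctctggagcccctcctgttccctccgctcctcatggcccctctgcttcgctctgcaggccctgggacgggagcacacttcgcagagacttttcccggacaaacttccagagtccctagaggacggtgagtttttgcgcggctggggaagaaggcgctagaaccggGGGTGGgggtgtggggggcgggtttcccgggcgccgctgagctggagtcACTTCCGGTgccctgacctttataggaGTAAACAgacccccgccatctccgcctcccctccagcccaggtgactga
The Klf2 window held the MEF2 letters as CTAAATTTAG from its 133rd base, and these letters occurred in 3.69% of the 32851 mouse promoter windows. The Tcf7 window shown held the ETS letters from base 225 and the FOXO letters from base 252. FOXO letters occurred in 3.65% of all windows and ETS letters in 1.10%. KLF letters, found in all 3 windows shown, occurred in 31.5% of windows. The TCF/LEF letters CTTTGA were searched too, occurred in 16.0% of windows, and among the members were found in another start of Lef1 only. The Il7r and Cd44 windows held none of the 5 motifs. The other Tcf7 window, chr11:52282965-52283264 at the gene start given above, held none either. A match is a run of letters and no measured binding.

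Depth over all kept cells was close between the libraries. The control library kept 2279 of 2597 barcodes as cells and the AdipoΔ/Δ library 2016 of 2381, with a median of 3678 and 3942 UMIs per cell. The libraries shared 4 kept barcodes, and these were counted as separate cells. T-like, B-like and NK-like cells, called the lymphocyte pool below, numbered 821 in control (36.0% of cells) and 509 in AdipoΔ/Δ (25.2%). The pool had a median of 3400 UMIs per cell in control and 4902 in AdipoΔ/Δ. By class the medians were 3488 and 3597 in T-like, 1803 and 2090 in B-like and 6410 and 6493 in NK-like cells. Control held 348 T-like, 262 B-like and 211 NK-like cells, and AdipoΔ/Δ held 245, 93 and 171. B-like cells thus made up 31.9% of the control pool and 18.3% of the AdipoΔ/Δ pool. Their markers matched the names. Cd3d stood at 852 and 924 CPM (counts per 1e6, from UMIs summed over the cells of a class) in T-like cells of control and AdipoΔ/Δ, Cd79a at 3471 and 3141 CPM in B-like cells, and Ncr1 at 945 and 1035 CPM in NK-like cells. Of the NK-like cells, 61.6% in control and 73.7% in AdipoΔ/Δ held 2 or more T-lineage UMIs. These were mainly of the T-cell receptor constant genes Trbc1 (280 and 308 CPM) and Trbc2, while Cd3d stood at 15.3 and 22.4 CPM there. A small cluster of 35 and 27 cells held Gata3 (383 and 752 CPM) and Il1rl1 (490 and 381 CPM), which mark group 2 innate lymphoid cells. Its top genes were Mcpt4, Tpsb2, Cpa3 and Cma1 of mast cells, whose UMIs came from 1 cell in each library. The naming rule given under processing placed this cluster with group 2 innate lymphoid cells, but it was left without that name. It is called the Arg1, Il1rl1 cluster after 2 more of its top 10 genes. Pnpla2, which encodes ATGL, stood at 37.1 and 42.2 CPM over all kept cells, a level that does not check the genotype because adipocytes were not among the sorted cells. Each condition rests on 1 library, so control and AdipoΔ/Δ could not be tested against each other. Intervals are 95% limits of counting error alone and do not cover differences between mice. Limits on UMIs also do not cover the spread of UMIs between cells.

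Of the egress genes, S1pr1 was held mostly by lymphocytes and Klf2 was not. In control S1pr1 stood at 222 CPM in T-like cells (334 UMIs), 129 in B-like, 20.8 in NK-like, 23.4 in macrophage-like, 3.75 in neutrophil-like, 3.68 in DC-like and 0.784 in monocyte-like cells. In AdipoΔ/Δ it stood at 135 CPM in T-like cells (176 UMIs), 91.3 in B-like, 9.26 in NK-like, 21.8 in macrophage-like, 1.90 in neutrophil-like and 0.507 in monocyte-like cells. T-like cells stood above B-like cells beyond the counting limits in control, whereas in AdipoΔ/Δ these limits overlapped. The Arg1, Il1rl1 cluster had no S1pr1 UMI in either library, which allows levels of up to 28.2 and 35.1 CPM. The pool held 93.0% of all S1pr1 UMIs in control and 67.7% in AdipoΔ/Δ, where macrophage-like cells held 24.2%. The pool held 33.8% and 36.1% of all Klf2 UMIs. Its highest level was in neutrophil-like cells, at 2366 CPM in control and 1973 in AdipoΔ/Δ, ahead of B-like cells (965 and 1261), T-like cells (840 and 652), NK-like cells (692 and 702) and monocyte-like cells (592 and 629). Klf2 was near 0 in the Arg1, Il1rl1 cluster, with 2 UMIs in control and 3 in AdipoΔ/Δ.

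**Figure D1:**
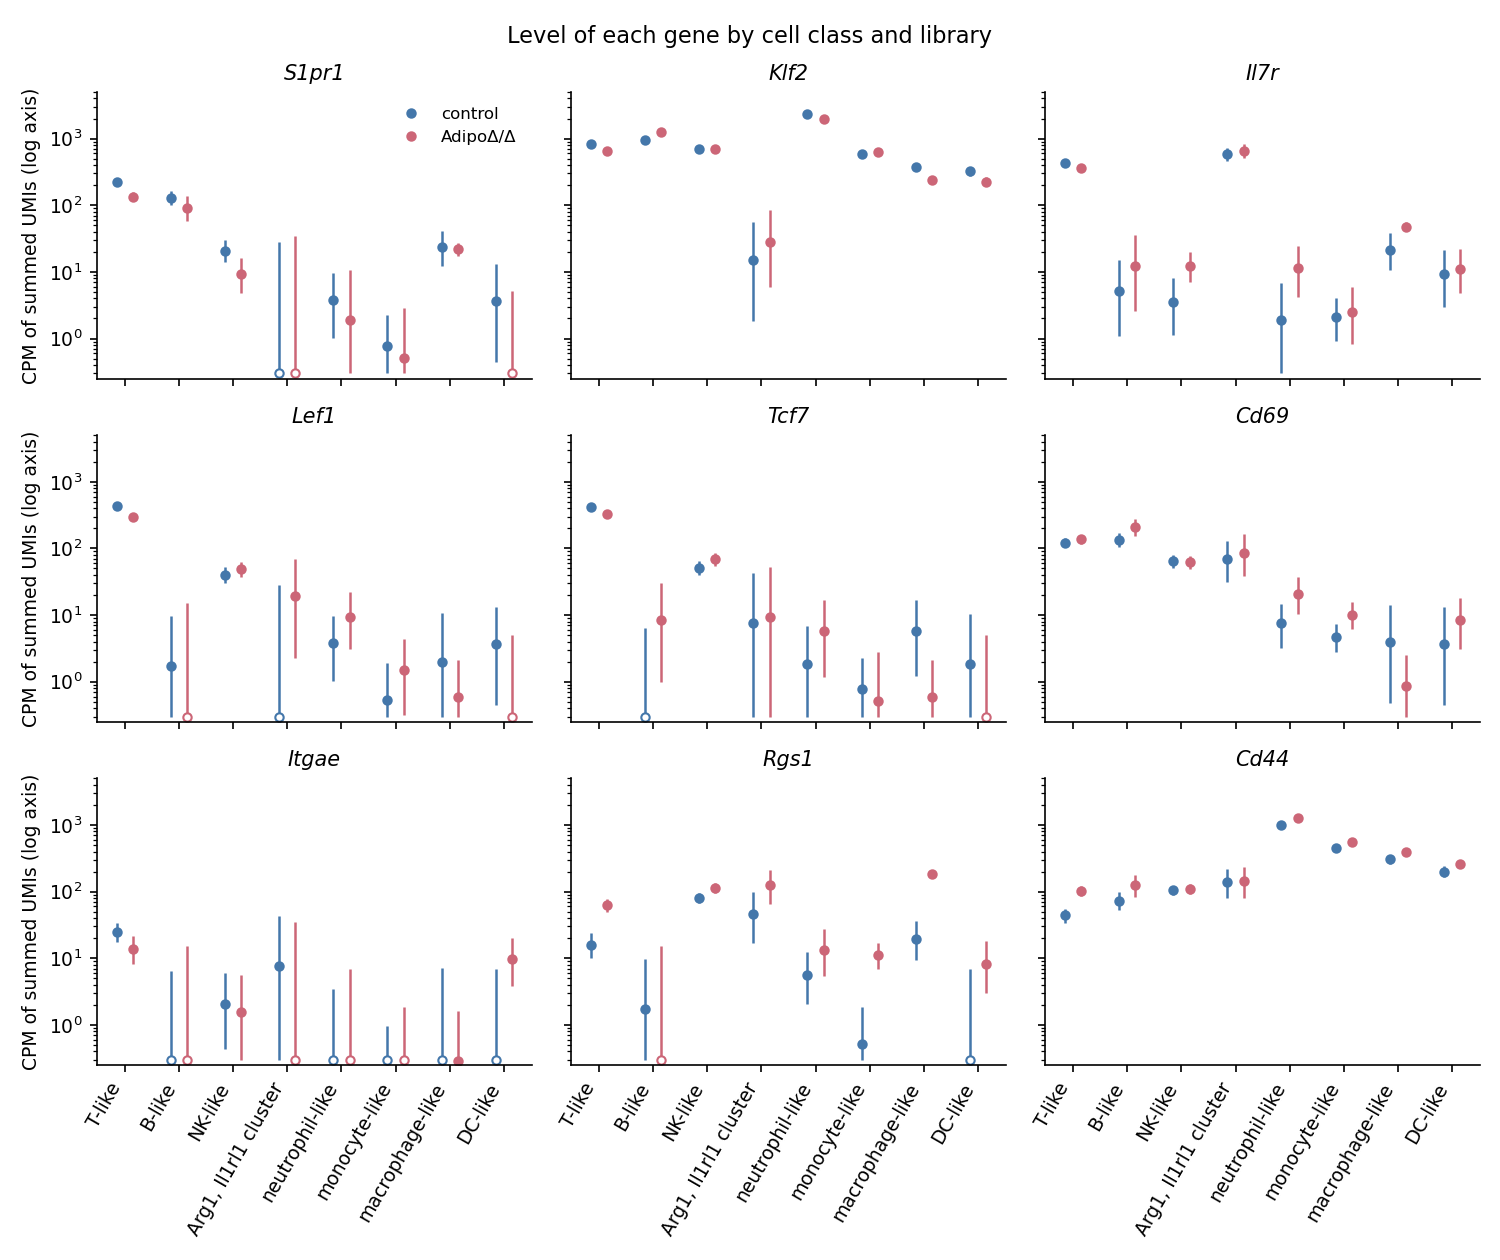
Level of each gene (CPM of summed UMIs, log axis) in 7 cell classes and the Arg1, Il1rl1 cluster of the control (blue) and AdipoΔ/Δ (red) library; points are levels, lines are 95% Poisson limits cut at the lower edge of the axis, and open points at the lower edge mark classes with no UMI. Lef1 and Tcf7 stand highest in T-like cells, Il7r in T-like cells and the Arg1, Il1rl1 cluster, Klf2 and Cd44 in neutrophil-like cells, and Rgs1 stands at 19.5 CPM in control and 181 CPM in AdipoΔ/Δ macrophage-like cells.

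The naive-type genes marked T-like cells in both libraries. Lef1 stood at 437 CPM in control and 300 in AdipoΔ/Δ T-like cells, against 40.3 and 48.6 in NK-like cells and at most 1 UMI in B-like cells. Tcf7 stood at 419 and 330 CPM in T-like and 50.7 and 68.7 in NK-like cells. Il7r followed another order, with the Arg1, Il1rl1 cluster first (581 and 657 CPM, and 607 and 680 without the cells with Mcpt4) and T-like cells next (434 and 356), and the limits of these overlapped in control but not in AdipoΔ/Δ. NK-like and B-like cells held almost none, with 3 to 16 UMIs per class and library. Macrophage-like cells held 21.4 CPM of Il7r in control and 47.7 in AdipoΔ/Δ.

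Among the retention genes, Cd69 belonged to lymphocytes of all kinds. B-like cells (134 CPM in control, 207 in AdipoΔ/Δ), T-like cells (122 and 138) and the 12 and 8 plasma-like cells (111 and 132) had overlapping limits, and NK-like cells stood at 63.9 and 61.8 CPM. Itgae was scarce throughout, with 61 UMIs in all control cells and 28 in all AdipoΔ/Δ cells, 37 and 18 of them in T-like cells. Of the named classes, Rgs1 stood highest in NK-like cells of control (80.6 CPM) and in macrophage-like cells of AdipoΔ/Δ (181 CPM), and the other unnamed clusters together held 86.5 and 182 CPM. Macrophage-like cells held 55.8% of all Rgs1 UMIs in AdipoΔ/Δ and 4.05% in control. Cd44 was mainly a transcript of neutrophil-like (1002 and 1293 CPM) and monocyte-like cells (459 and 556). T-like cells of control stood lowest of all classes at 43.9 CPM, with limits that overlapped those of plasma-like, B-like and dividing cells.

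Over 7 classes and the Arg1, Il1rl1 cluster, each with at least 20 cells in each library (16 points that share 2 libraries), the genes most alike to each member on the scale of log2(CPM + 10) were named as a description. Lef1 and Tcf7 were each other's nearest genes among 7899 (Pearson r = 0.97). For S1pr1 the nearest were Dtx1 (r = 0.95) and Slamf6 (r = 0.94), for Klf2 Zfp236 and Rasa3 (both r = 0.93), for Cd69 Rab11fip2 (r = 0.97), Ablim1 (r = 0.95) and Ets1 (r = 0.94), and for Cd44 Gnai2 (r = 0.97). The best matches of Itgae were Cd6, Trac and Cd3e (r = 0.81 to 0.86), which are T-cell genes, and Rgs1 reached r = 0.86 at most, with Bcl2l1.

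In T-like cells the egress and naive-type genes stood lower in AdipoΔ/Δ, and Rgs1 and Cd44 stood higher. The ratio of AdipoΔ/Δ to control was 0.608 for S1pr1 (95% limits 0.503 to 0.731), 0.777 for Klf2 (0.711 to 0.848), 0.685 for Lef1 (0.603 to 0.778), 0.787 for Tcf7 (0.695 to 0.891) and 0.821 for Il7r (0.727 to 0.926). All 5 had limits below 1. Rgs1 stood at 16.0 CPM in control and 62.1 in AdipoΔ/Δ, a ratio of 3.89 (2.44 to 6.42). Cd44 stood at 43.9 and 102 CPM, a ratio of 2.32 (1.72 to 3.17). For Cd69 the ratio was 1.13 with limits of 0.913 to 1.39, so no difference was detectable at this depth. Itgae had a ratio of 0.561 from 37 and 18 UMIs, with limits of 0.301 to 1.01. The study's methods give a mitochondrial limit of 2%, where 10% was used here. A limit of 2% left 169 control and 109 AdipoΔ/Δ T-like cells. With it the ratio was 0.366 for S1pr1, 0.495 for Klf2, 0.394 for Lef1, 0.426 for Tcf7, 2.22 for Rgs1 and 1.73 for Itgae. The Itgae ratio then lay on the other side of 1.

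A fold of 1.5 on at least 20 UMIs in both libraries together was used to set these members against all genes. The members were chosen with earlier results of these data known, so these counts only describe. In T-like cells 2 of the 9 members (Rgs1, Cd44) were higher by more than this, against 22.8% of 7617 genes, and 2 (S1pr1, Itgae) were lower, against 4.67%. The median gene itself was higher in AdipoΔ/Δ, by 0.25 on the log2 scale in T-like, 0.12 in B-like and 0.08 in NK-like cells. Relative to the median gene, the T-like ratios were 0.509 for S1pr1, 0.651 for Klf2, 0.574 for Lef1, 0.660 for Tcf7, 0.688 for Il7r, 0.946 for Cd69 (on the other side of 1), 0.470 for Itgae, 3.26 for Rgs1 and 1.95 for Cd44. On that scale 5 members were lower and 2 higher by more than 1.5-fold, against 10.4% and 11.7% of all genes. The median log2 ratio of the 9 members was -0.35, beside 0.25 for all genes.

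**Figure D2:**
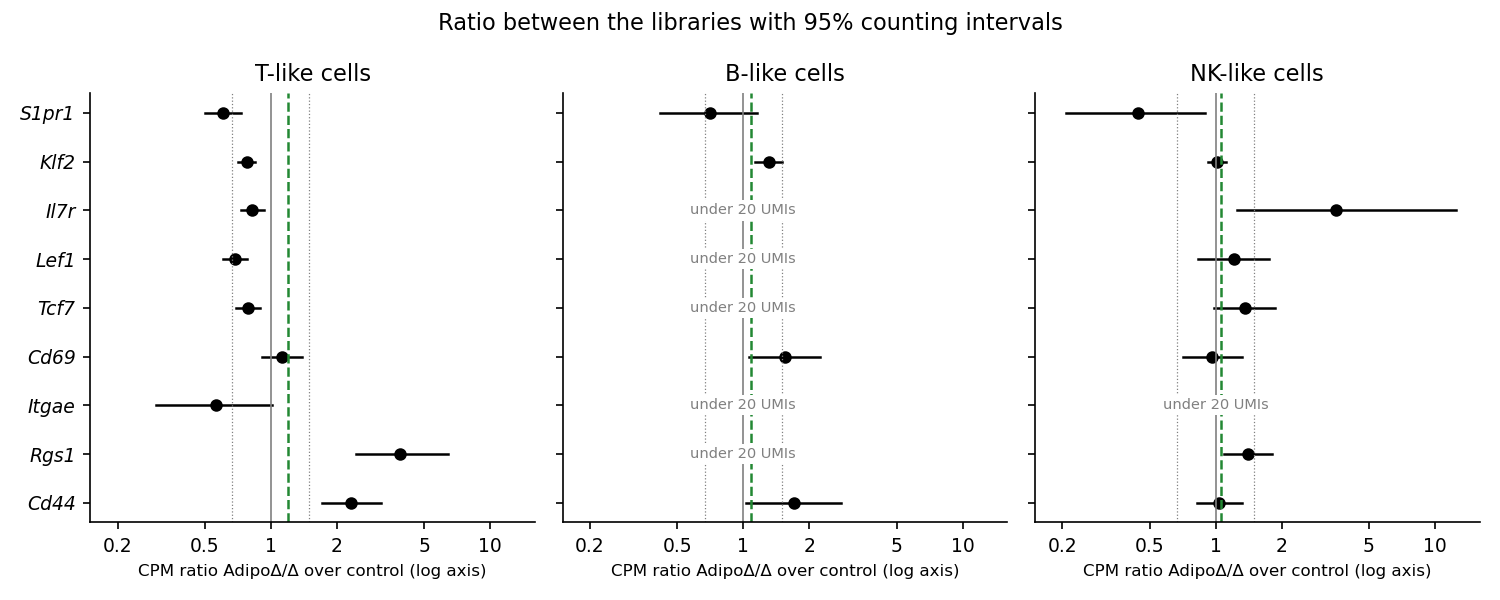
CPM ratio of AdipoΔ/Δ over control (log axis) of each gene in T-like, B-like and NK-like cells with 95% counting limits; the grey line marks 1, dotted lines the 1.5-fold limits and the dashed green line the median of all genes. In T-like cells the first 5 genes have limits below 1, and Rgs1 (3.89) and Cd44 (2.32) lie above the upper dotted line.

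Shares of T-like cells with a UMI pointed the same way as the levels. Of the thinned shares, only those of Klf2 had limits that did not overlap between the libraries. After each cell was thinned to 1000 UMIs (315 control and 221 AdipoΔ/Δ cells), Klf2 was seen in 54.6% of control (49.0% to 60.2%) and 40.1% of AdipoΔ/Δ cells (33.6% to 46.9%), S1pr1 in 16.8% and 11.1%, Lef1 in 31.0% and 22.1%, Tcf7 in 34.1% and 26.2%, and Il7r in 25.8% and 23.6%. Cd69 was seen in 7.98% and 8.33%, Itgae in 1.69% and 1.63%, Rgs1 in 1.02% and 4.77%, and Cd44 in 4.54% and 10.5%. Without thinning, S1pr1 was seen in 42.2% and 35.9% of T-like cells and Rgs1 in 4.31% and 16.3%. The unthinned limits did not overlap for Klf2, Lef1, Tcf7, Rgs1 and Cd44. In thinned monocyte-like cells, which should lack most of these transcripts, S1pr1 was seen in 0.0691% and 0.0381%, Lef1 in 0.0303% and 0.183%, Il7r in 0.126% and 0.392%, and Rgs1 in 0.0936% and 1.00%. Their median depth was 4869 and 3284 UMIs, against 3488 and 3597 in T-like cells.

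The 3 clusters of T-like cells, formed without these genes, split the pattern. The first was led by Dapl1, Lef1 and Tcf7, the next by Cd8b1 and Cd8a, and the last, part of a mixed cluster, by Ccl1 and Trac. The Dapl1 cluster made up 55.2% of control and 36.7% of AdipoΔ/Δ T-like cells, the Cd8b1 cluster 29.6% and 32.2%, and the Ccl1 cluster 15.2% and 31.0%. In the Dapl1 cluster S1pr1 stood at 155 CPM in control and 142 in AdipoΔ/Δ (ratio 0.920, limits 0.642 to 1.30), Klf2 at 813 and 757 (0.931, 0.801 to 1.08) and Lef1 at 432 and 427. All 9 members had limits that included 1 in these cells. In the Cd8b1 cluster S1pr1 stood at 293 and 163 CPM (0.554, 0.439 to 0.696), Lef1 at 494 and 317 (0.641, 0.542 to 0.759), Itgae at 35.0 and 6.89 (26 and 5 UMIs), Rgs1 at 24.2 and 62.0 (2.56, 1.45 to 4.70) and Cd44 at 40.4 and 85.4 CPM (2.12, 1.35 to 3.39). In the Ccl1 cluster S1pr1 stood at 139 and 35.2 CPM (15 and 8 UMIs), Klf2 at 702 and 277 (0.394, 0.278 to 0.558), Rgs1 at 36.9 and 141 (4 and 32 UMIs) and Cd44 at 166 and 286 CPM. Differences between the clusters in these ratios were not tested.

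**Figure D3:**
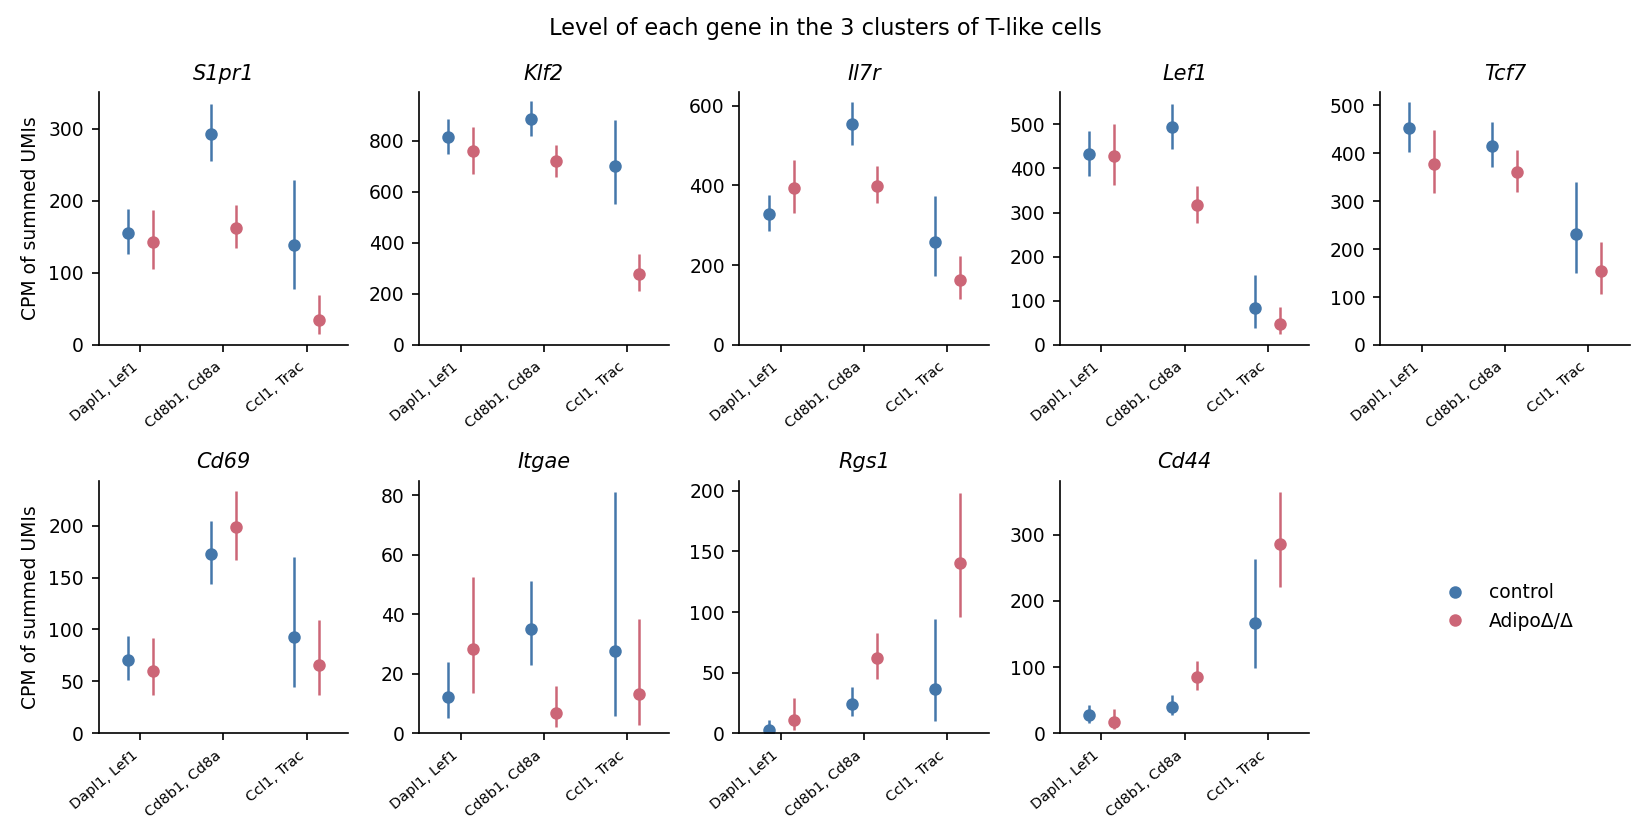
CPM of summed UMIs of each gene in the 3 clusters of T-like cells, named by 2 of their leading genes, in control (blue) and AdipoΔ/Δ (red); lines are 95% Poisson limits and each panel starts at 0. In the Dapl1, Lef1 cluster the limits of both libraries overlap for every gene, whereas S1pr1 stands at 293 CPM in control and 163 in AdipoΔ/Δ in the Cd8b1, Cd8a cluster.

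When both libraries were weighted to 1 mix of the 3 clusters, the ratio was 0.622 for S1pr1, 0.813 for Klf2, 0.767 for Lef1, 0.841 for Tcf7, 2.93 for Rgs1 and 1.67 for Cd44. S1pr1 thus moved little with the mix, and Rgs1 and Cd44 came closer to 1. S1pr1 was seen with no detectable difference in T-like cells with and without a Cd69 UMI. Thinned cells with Cd69 were few, an expected 25.1 in control and 18.4 in AdipoΔ/Δ. Among thinned T-like cells with a Cd69 UMI, S1pr1 was seen in 19.2% of control and 13.6% of AdipoΔ/Δ cells, and among those without, in 16.5% and 10.8%, with overlapping limits. Cells with a Lef1 or Tcf7 UMI held Klf2 in 52.4% and Cd44 in 4.97% of AdipoΔ/Δ cells, against 31.8% and 14.1% of cells without. In control these shares were 58.9% and 3.49% with, and 49.9% and 5.72% without. Only the limits of Klf2 in AdipoΔ/Δ did not overlap (41.6% to 63.1% with and 24.0% to 40.4% without).

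B-like and NK-like cells had other ratios than T-like cells for several members, and these differences between classes were not tested. In B-like cells Klf2 stood at 965 CPM in control and 1261 in AdipoΔ/Δ (ratio 1.31, 1.13 to 1.51), Cd69 at 134 and 207 (1.54, 1.06 to 2.23), S1pr1 at 129 and 91.3 (0.707, 0.418 to 1.15) and Cd44 at 73.3 and 124 CPM (1.70, 1.03 to 2.78). Of the 4 members with enough UMIs, 2 were higher by over 1.5-fold, against 18.8% of 4170 genes, and none was lower, against 9.95%. One AdipoΔ/Δ cell held 15 of the 30 Cd44 UMIs, and without the top cell of each library the Cd44 ratio was 0.976 and that of Cd69 1.48 (0.991 to 2.18), so neither passed 1.5-fold. When B cells were chosen by their UMIs of Cd79a, Cd79b and Ms4a1 in place of clusters, the Klf2 ratio was 0.829 (0.724 to 0.949), the other side of 1. In NK-like cells Klf2 (ratio 1.01, 0.926 to 1.11), Cd69 (0.966, 0.707 to 1.32) and Cd44 (1.04, 0.819 to 1.31) stood at like levels in both libraries. S1pr1 stood at 20.8 and 9.26 CPM there, from 30 and 12 UMIs (0.445, 0.207 to 0.894). It stood at 24.0 and 8.60 CPM in NK-like cells with 2 or more T-lineage UMIs and at 13.7 and 12.0 in the rest. Without cells that carried UMIs of other lineages the S1pr1 ratio was 0.825 (0.189 to 2.86), and 1.17 (upper limit 4.59) with NK cells chosen by their UMIs. Rgs1 stood at 80.6 and 113 CPM (1.40, 1.09 to 1.80). Il7r stood at 3.47 and 12.4 CPM in NK-like cells, and 1 cell held 10 of its 16 AdipoΔ/Δ UMIs. Of 8 members 1 was higher (Il7r, background 10.1% of 8238 genes) and 1 lower (S1pr1, 4.35%).

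How much of the pool looked recirculating was asked in both of the ways that follow. The first was the share of egress UMIs among egress and retention UMIs together. In T-like cells it was 86.7% in control (1597 egress and 245 retention UMIs) and 78.6% in AdipoΔ/Δ (1027 against 279), an odds ratio of 0.565 (0.465 to 0.685). In B-like cells it was 88.9% and 86.7% (odds ratio 0.811, 0.547 to 1.21), and in NK-like cells 82.9% and 80.2% (0.831, 0.671 to 1.03). For the pool it was 85.9% and 80.3% (0.671, 0.588 to 0.766). Klf2 gave most of the egress UMIs. Without it the odds ratio was 0.464 (0.243 to 0.871) in B-like and 0.370 (0.168 to 0.769) in NK-like cells, with limits then below 1. The NK-like value rests on 30 and 12 S1pr1 UMIs, whose ratio depended on how NK cells were chosen. S1pr5, another S1P receptor gene, stood at 163 and 144 CPM in NK-like cells (ratio 0.884, 0.726 to 1.08). Without Rgs1 the odds ratio was 1.04 (0.755 to 1.43) in NK-like cells. Within T-like cells the odds ratio was 0.800 (0.503 to 1.29) in the Dapl1 cluster, 0.649 (0.513 to 0.822) in the Cd8b1 cluster and 0.265 (0.132 to 0.518) in the Ccl1 cluster. T-like cells with Cd8a or Cd8b1 UMIs and no Cd4 UMI went from 84.1% in control to 78.6% in AdipoΔ/Δ, and those with Cd4 alone from 92.2% to 78.8%. The Arg1, Il1rl1 cluster had 11.1% and 12.0%, from 18 and 25 UMIs. An unnamed cluster led by Cd7 and Xcl1 (39 and 40 cells) had 27.4% in control and 54.0% in AdipoΔ/Δ. This was the opposite direction (odds ratio 3.12, 1.88 to 5.18). By cells thinned to 1000 UMIs the limits overlapped. Those with an egress UMI and no retention UMI made up 8.04% (1.77% to 21.3%) in control and 12.0% (3.88% to 26.2%) in AdipoΔ/Δ.

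The second way counted recirculating-type cells, which held an egress UMI and no retention UMI after thinning to 1000 UMIs. The count rested mostly on Klf2, which is not particular to lymphocytes. In thinned NK-like cells Klf2 was seen in 49.0% of control and 49.8% of AdipoΔ/Δ cells, and S1pr1 in 1.92% and 0.941%. In thinned neutrophil-like cells Klf2 was seen in 83.2% and 78.0%, so the type does not by itself show recirculation. Recirculating-type cells made up 55.0% of T-like cells in control (49.4% to 60.6%) and 38.5% in AdipoΔ/Δ (32.1% to 45.3%). For B-like cells the shares were 54.3% and 54.1%, and for NK-like cells 43.9% and 42.0%, with overlapping limits. Of the whole pool, 51.7% of control cells (48.0% to 55.3%) and 42.4% of AdipoΔ/Δ cells (37.8% to 47.0%) were of this type, and 51.3% and 43.4% with both libraries weighted to 1 mix of the classes. Without thinning the pool held 55.5% and 43.0%, at unlike median depths of 3400 and 4902 UMIs per cell. Cells with retention UMIs alone made up 4.26% and 7.83% of T-like cells. Cells with neither kind were common at this depth, with 34.6% and 47.4% of T-like cells, and a cell without a UMI is not a cell without the transcript. The Dapl1 cluster had 57.5% and 50.9% recirculating-type cells, the Cd8b1 cluster 55.6% and 42.0%, and the Ccl1 cluster 43.1% and 17.4%. The ratio of these shares was 0.700 (0.534 to 0.912) in T-like cells, and 0.819 (0.613 to 1.09) without the Ccl1 cluster. The limits of this ratio treat numbers of cells as Poisson counts, which makes them wider than limits for shares.

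**Figure D4:**
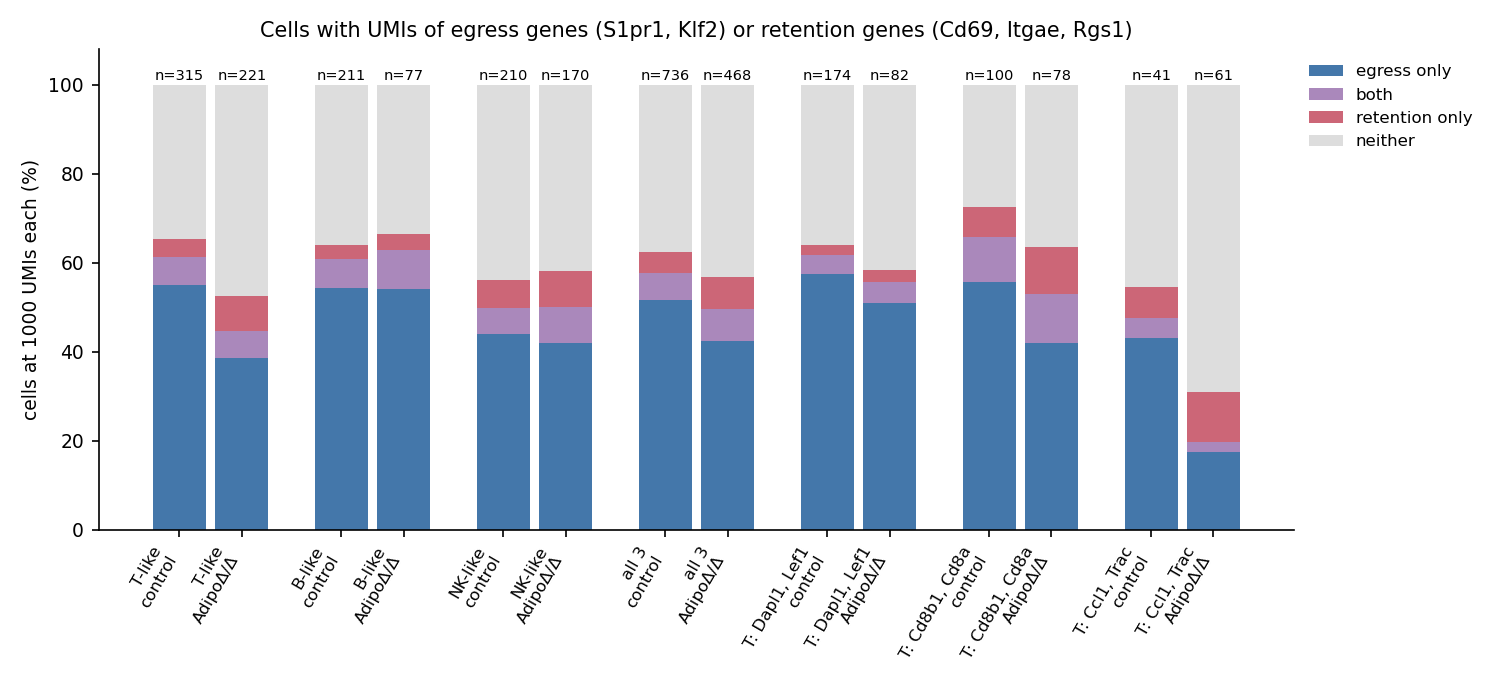
Share of cells (%), each thinned to 1000 UMIs, with UMIs of egress genes only, of both kinds, of retention genes only or of neither, by class and T-like cluster in each library; n is the number of cells with at least 1000 UMIs, and all 3 means T-like, B-like and NK-like cells together. The egress-only part is 55.0% of control and 38.5% of AdipoΔ/Δ T-like cells, and 54.3% and 54.1% of B-like cells.

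Other genes of these programmes were described from lists made for naive and homing, residency, effector and S1P-handling functions. These lists, like all others here, were chosen with earlier results of these data known. Their counts are therefore a description and no test. In T-like cells 3 of 15 naive and homing genes were lower and 1 higher by over 1.5-fold, against 4.67% and 22.8% of all genes. The lymph node homing receptor Ccr7 stood at 247 CPM in control and 145 in AdipoΔ/Δ, Igfbp4 at 293 and 164, and the integrin Itgal, which was the higher one, at 94.4 and 169. Of 11 residency genes 8 were higher (background 22.8%) and none lower, with Rgs2 at 7.31 and 34.5 CPM and Pdcd1 (PD-1) at 2.66 and 13.0, while Gpr183 and Cxcr4 stood at 75.8 and 54.4 and at 39.2 and 32.2 CPM. All 12 effector genes were higher, against the same 22.8%, from Nkg7 (538 and 1022 CPM) and Il2rb (106 and 221) to Gzmk (2 and 40 UMIs) and Cx3cr1 (1 and 27 UMIs). The median log2 ratio was 1.55 for effector, 1.11 for residency and -0.19 for naive and homing genes, beside 0.25 for all genes. None of the 6 S1P-handling genes with enough UMIs passed 1.5-fold, among them the lyase Sgpl1 (23.9 and 22.2 CPM), the phosphatase Sgpp1 (30.6 and 20.7), the kinase Sphk2 (9.97 and 14.6) and Gnai2 (407 and 510), which carries the receptor's signal. In NK-like cells none of 11 effector genes passed the fold in either direction.

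Other transcripts moved with the library and are given beside these results. Of 17 genes that tissue digestion induces, 10 were higher and 1 lower by over 1.5-fold in AdipoΔ/Δ T-like cells, against 22.8% and 4.67% of all genes, and their summed level was 2245 CPM in control and 3699 in AdipoΔ/Δ. In NK-like cells the sum was 3666 and 4713 CPM and in B-like cells 2468 and 4763. Cells with a haemoglobin UMI made up 16.1% of control and 2.04% of AdipoΔ/Δ T-like cells, 20.2% and 4.30% of B-like and 21.3% and 1.75% of NK-like cells. Blood cells enter a digested tissue, and the part of blood lymphocytes in either library was not tested. In control B-like cells 2 cells held 10893 of 10955 haemoglobin UMIs. Macrophage marker genes summed to 81.1 and 217 CPM in T-like cells (10 and 13 of 14 genes with a UMI), to 157 and 834 in B-like and to 52.8 and 378 in NK-like cells. In B-like cells of AdipoΔ/Δ no Rgs1 UMI was seen among 241029, which allows up to 15.3 CPM. Without lymphocytes that carried 3 or more UMIs of other lineages, the Rgs1 ratio in T-like cells was 7.65 (4.11 to 15.5). Neither the part of digestion nor that of macrophage transcripts in these ratios was tested.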

How the data were processed

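CD45+ Dapi- cells sorted from BAT after digestion (1.5 mg/ml collagenase A, 30 minutes, 37 °C) gave 1 droplet library per condition (10x 3′ v3.1). The authors aligned the reads to mm10 and deposited UMI counts per gene and barcode, made with Cell Ranger 4.0.0 and not normalized, so each value is a number of molecules read near the 3′ end. Cells had to have 200 genes or more and no more than 10% mitochondrial UMIs, where the study's methods give a limit of 2%. Cells were normalized with sctransform 0.4.2, integrated and clustered with Seurat 5.3.0 (R 4.3.3). Of 2000 features 1933 were used, without the members and the context lists, with 20 components and a resolution of 1.0. A cluster was named with at least 3 markers seen in 10% of its cells, a score of 0.5 or more and 2 of its markers among its top 10 genes. This rule was set after the clusters were seen. So was the split of 1 mixed cluster into T-like cells and the Arg1, Il1rl1 cluster at resolution 2.0. Doublets were not called, and an alternative leaves out lymphocytes with 3 or more UMIs of other lineages.

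CPM were computed from UMIs summed per class and library. Intervals at 95% are exact Poisson, Clopper-Pearson or conditional (SciPy 1.17.1), and cover counting error only. Limits on ratios of shares treat numbers of cells as Poisson counts, which makes them wider than limits for shares. Thinned shares are exact expectations at 1000 UMIs, without shallower cells. For a class with no UMI the upper Poisson limit is given. Scripts were tested on simulated data. All 9 members are named, together with the 2 highest and 2 lowest genes of each context list, the most alike genes and the leading or marker genes of classes. S1pr5 was named after the data were seen. The members and lists were chosen with earlier results of these data known. Alternatives covered filters, features, resolution, gates, thinning, gene sets, weights and scaling. 4 more were chosen after seeing the data: cells with over 1% haemoglobin left out, the T-like class without its Ccl1 cluster, the T-like class with the cluster led by Cd7 and Xcl1 added, and B cells chosen by UMIs of Cd79a, Cd79b and Ms4a1. Some genes of the lists and searches are not reported here. Leading-cell and UMI-gate values of the B-like and NK-like classes were also looked at after the data were seen.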

Additional observations from a re-analysis of the deposited data

Results flagged for a closer look

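Rgs1 was seen in barcodes that no comparison used. In the 365 AdipoΔ/Δ barcodes left out by the filters it stood at 164 CPM (117 UMIs), and in the 318 left out of the control library at 19.2 CPM (11 UMIs), a ratio of 8.57 (4.62 to 17.6).

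The limits of the Klf2 ratio lay on opposite sides of 1 in B-like cells (1.31) and T-like cells (0.777), and those of the Il7r ratio did so in NK-like cells (3.56) and T-like cells (0.821). Each condition is 1 library, so neither difference between classes was tested. With B cells chosen by their UMIs the Klf2 ratio was 0.829 (0.724 to 0.949), on the same side as in T-like cells. The Il7r ratio in NK-like cells was 2.26 (0.483 to 14.0) without the top cell of each library.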

How the results depend on the processing

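In T-like cells the odds ratio of egress to retention UMIs (0.565) lay between 0.340 and 0.718 and the ratio of recirculating-type shares (0.700) between 0.506 and 0.819 over all alternatives run, below 1 as values. The limits of the share ratio included 1 in T-like cells without the Ccl1 cluster (0.819, 0.613 to 1.09), thinned to fewer UMIs (0.741) and with S1pr1 alone (0.645), and in the pool without the Ccl1 cluster (0.884, 0.737 to 1.06), thinned to fewer UMIs (0.862), weighted to 1 mix (0.844) and without cells of other lineages (0.823). These limits treat numbers of cells as Poisson counts and are wider than limits for shares, so a 1 within them decides little. For the pool the ranges were 0.460 to 0.833 (main value 0.671) and 0.602 to 0.884 (main value 0.820). With a mitochondrial limit of 2% the odds ratio was 0.340 in T-like cells and 0.482 in the pool, the share ratios were 0.506 and 0.641, 5 members were lower in T-like cells, 0 higher and 1 lower in B-like cells, and 0 lower in NK-like cells. A limit of 5% gave 0 members higher in B-like and 0 in NK-like cells. Without Klf2 the odds ratio was 0.463 in T-like, 0.464 in B-like and 0.370 in NK-like cells and 0.460 in the pool. Without Rgs1 it was 0.718 in T-like and 1.04 in NK-like cells and 0.833 in the pool. As a mean of per-cell shares it was 0.422 in T-like cells and 0.544 in the pool. S1pr1 as the only egress gene gave share ratios of 0.642 in B-like and 0.477 in NK-like cells and 0.602 in the pool. Classes from UMIs gave odds ratios of 0.544 in B-like cells and 0.552 in the pool, with 0 members higher and 1 lower in B-like cells and 2 higher and 0 lower in NK-like cells. Leaving out cells with markers of other lineages, which kept 107 control and 53 AdipoΔ/Δ NK-like cells, or asking for at least 50 UMIs, left 0 members higher and 0 lower in NK-like cells. Scaling by the median gene gave 5 members lower in T-like cells and 1 higher and 1 lower in B-like cells. Of 193 single ratios 19 crossed 1. Of these, 8 were of members past 1.5-fold: Itgae in T-like cells at a limit of 2% (1.73) and as a mean over cells (1.35), Cd44 in B-like cells at a limit of 5% (0.801), at 2% (0, with no AdipoΔ/Δ UMI) and as a mean over cells (0.866), S1pr1 in NK-like cells from UMI classes (1.17), and Il7r in NK-like cells from UMI classes (0) and without cells of other lineages (0). The other 11 were Klf2 in B-like cells from UMI classes (0.830, and 0.829 from Cd79a, Cd79b and Ms4a1), Cd69 in T-like cells at 2% (0.887), and Klf2, Cd69 and Cd44 in NK-like cells, among them Cd69 from UMI classes (2.04, 1.09 to 3.80). The cause was not tested. All 27 thinning alternatives of single shares in T-like cells stayed within the counting limits of the share ratios, which also treat cells as Poisson counts. No paired analysis was possible because each condition has 1 library. Depth gave no ratio for 5 of 9 members in B-like cells and for Itgae in NK-like cells, which had under 20 UMIs there.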
